A study of Mus musculus with 46 samples.

Results

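Breathing pure oxygen injures the lung, and a group of transcripts on one of the array types used here was low in lungs of both genotypes at the end of the exposure. The group was selected on its measured values. A probe set of array type B belonged to it when it carried 1 gene symbol, when its mean log2 intensity, taken after adding a fixed constant, was lower by 1 or more at 72 h than in wild type lungs at 0 h in mutant and in wild type lungs alike, and when its mean intensity in wild type lungs at 0 h was 500 or more. This gave 107 probe sets for 106 genes, of the 10581 probe sets with 1 symbol among the 12411 probe sets other than controls on array type B. Ppp1r14c, which encodes an inhibitor of protein phosphatase 1, is present with 2 probe sets.

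Total RNA was taken from lungs of mutant mice, labelled mutated (Nrf2), and of wild type mice. Each genotype gave 4 groups, an untreated one (0 h) and those kept in 100% oxygen for 24, 48 or 72 h. The labels give no age, sex, strain, kind of mutation or number of animals, nor whether an RNA pool was used. Each group had 2 arrays of type B, called replicates 1a and 1b, and whether these stem from different mice is not stated, so the p-values below reflect the spread of these samples, which may be technical. The whole series held 46 arrays of 3 types, of which 16 were of type B.

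The transcription factor Nrf2 is kept in the cytoplasm by Keap1. After oxidative stress it enters the nucleus and, paired with a small Maf protein, binds antioxidant response elements. Hyperoxia damages the alveolar epithelium and the endothelium, and inflammatory cells and oedema fluid then enter the tissue. Lung tissue also holds airway epithelium with secretory and ciliated cells, resident lymphocytes, and heart-type muscle in the walls of the large pulmonary veins, which in the mouse reaches into the lung. In a bulk sample, fewer cells of a type and less RNA per cell cannot be told apart, and this holds for every result below.

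The lung label was checked against 4 defining transcripts on array type A. Sftpc and Sftpb, surfactant proteins of alveolar type 2 cells, Scgb1a1 of club cells and Ager of alveolar type 1 cells were at or above the 98.4th percentile on every array. The 2 mutant 0 h arrays of type B stood apart, with a mean correlation to the other arrays of 0.897 and 0.903, against 0.934 to 0.95 for the arrays of the other 7 groups. On array type A the summed intensity of 5 skeletal muscle markers was 25155 on the mutant 0 h array, against 2525 and 2657 on the wild type 0 h arrays. On array type C the sum over 4 squamous epithelium markers was 43333 and 53612 on the mutant 0 h arrays, against 840.7 and 899 on the wild type 0 h arrays. The part of these tissues in any difference from mutant 0 h was not tested. Results that rest on the mutant 0 h arrays are named as such below.

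Promoter sequences of 88 of the 106 genes were found by gene ID in the RefSeq promoter table of build GRCm38.p6, and the 250 bases before the start of transcription were searched on both strands for 9 short motifs. The motifs were the antioxidant response element core TGACNNNGC, the X-box half-site GTTGCC, the MEF2 core TAAAAATA, the E-box CAGCTG, the ETS core CCGGAAG, the cAMP response element TGACGTCA, the CCAAT box, the GC box GGGCGG and the TATA box TATAAA. None of these letter strings contains another. The search is a description of letters only. The shares of all genes are over every gene in the promoter table. They are not limited to genes on array type B or to the intensity asked of the members, so the 2 sets are not matched. The antioxidant response element core was present in 16 of the 88 genes (18.2%), against 11.5% of all 27025 genes in the table. Cetn4, Myl7, Btla, Plcb1 and Pdgfa were among the 16. The CCAAT box was present in 47 of 88 genes (53.4%, against 37.5% of all genes), with 9 of 12 genes of the nucleus and RNA group and 4 of 5 of the airway group described below. The GC box was present in 42 of 88 genes (47.7%, against 35.4%), with 0 of 7 striated muscle genes and 0 of 7 lymphocyte genes. The X-box half-site was in 11 of 88 genes (12.5%, against 11.8%), the E-box in 19 (21.6%, against 14.7%), the TATA box in 9 (10.2%, against 14.3%), the ETS core in 5 (5.68%, against 7.83%), and the MEF2 core and the cAMP response element in 3 each (3.41%, against 2.84% and 1.77%).

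The promoters of 5 members, each chosen by hand together with 1 motif, are printed as examples and not as typical of their groups. The X-box half-site was in 2 of 5 airway genes and the MEF2 core in 1 of 7 striated muscle genes. The antioxidant response element core was in 1 of 5 airway genes and 1 of 7 striated muscle genes. Ccdc153 and Fam183b are expressed in ciliated cells and hold the X-box half-site, the letters recognised by RFX factors of ciliated cells. Myl7, the atrial myosin light chain, and Cetn4, a centrin of ciliated cells, hold the antioxidant response element core. Xirp2, a striated muscle protein, holds the MEF2 core. Each line gives the 250 bases before the start, 5′ to 3′ on the strand of the gene, with the named motif in capitals in either orientation. The positions in GRCm38.p6 are chr9:44240427-44240676, plus strand for Ccdc153, chr11:58801961-58802210, minus strand for Fam183b, chr11:5898783-5899032, minus strand for Myl7, chr3:37312447-37312696, minus strand for Cetn4 and chr2:67445752-67446001, plus strand for Xirp2.
Ccdc153: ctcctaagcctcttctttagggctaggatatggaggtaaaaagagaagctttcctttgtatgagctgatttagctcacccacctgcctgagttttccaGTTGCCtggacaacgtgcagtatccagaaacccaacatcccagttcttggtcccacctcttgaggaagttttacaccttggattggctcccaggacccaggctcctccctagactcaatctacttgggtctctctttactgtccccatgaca
Fam183b: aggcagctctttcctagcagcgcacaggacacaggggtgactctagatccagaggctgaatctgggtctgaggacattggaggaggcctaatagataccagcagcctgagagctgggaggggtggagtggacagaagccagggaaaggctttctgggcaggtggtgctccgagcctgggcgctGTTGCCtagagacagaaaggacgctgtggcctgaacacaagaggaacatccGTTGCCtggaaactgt
Myl7: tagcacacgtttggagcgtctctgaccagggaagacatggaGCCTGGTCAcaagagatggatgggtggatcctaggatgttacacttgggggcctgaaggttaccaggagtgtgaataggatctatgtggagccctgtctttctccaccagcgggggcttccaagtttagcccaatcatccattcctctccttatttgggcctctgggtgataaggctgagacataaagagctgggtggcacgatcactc
Cetn4: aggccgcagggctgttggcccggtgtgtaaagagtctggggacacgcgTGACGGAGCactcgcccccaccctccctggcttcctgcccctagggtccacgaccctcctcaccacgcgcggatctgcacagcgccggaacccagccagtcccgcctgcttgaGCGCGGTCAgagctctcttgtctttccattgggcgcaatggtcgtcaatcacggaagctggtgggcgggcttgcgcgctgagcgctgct
Xirp2: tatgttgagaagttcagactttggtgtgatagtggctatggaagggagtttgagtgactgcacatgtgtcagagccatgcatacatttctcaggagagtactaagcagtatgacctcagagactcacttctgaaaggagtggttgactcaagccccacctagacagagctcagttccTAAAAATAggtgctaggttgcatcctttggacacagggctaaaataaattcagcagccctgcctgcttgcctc
Fam183b and Cetn4 hold their motif at 2 places, and Ccdc153, Myl7 and Xirp2 at 1 place. The motif of Ccdc153 begins 152 bases before the start, and that of Xirp2 begins 73 bases before it.

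The members ranged widely in level before oxygen. The mean intensity in wild type lungs at 0 h ran from 505 to 18913, with a median of 1342. The 6 members with the highest intensity were Pcolce2, an enhancer of procollagen processing, Scn7a, an atypical sodium channel, Bpgm, the enzyme that makes 2,3-bisphosphoglycerate in red cells, Sox4, a transcription factor of lung and lymphoid development, Ppp1r16b, a regulatory subunit of protein phosphatase 1 found in endothelium, and Rnf186, a ubiquitin ligase. Their mean intensities at wild type 0 h were 18913, 12090, 8003, 7908, 7430 and 7117. Intensities of different probe sets depend on the probes and are not set against each other as levels of the genes. At 72 h both arrays were below 273, the value used to filter dim probe sets, for 35 members in mutant lungs and for 23 in wild type lungs.

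Across the members, the median difference from wild type 0 h was -0.03 on the log2 scale in untreated mutant lungs, and -0.94, -0.99 and -1.46 after 24, 48 and 72 h of oxygen. In wild type lungs the medians after 24, 48 and 72 h were -0.71, -1.03 and -1.34. The values at 72 h and at wild type 0 h chose the members, so the size of these differences is a description. The counts at 24 h and 48 h that follow, and the shares of the 72 h difference, also start from wild type 0 h. Wild type 0 h values high by chance would enlarge the early differences as well. These counts and shares, here and by role, are thus a description, given without a share over all probe sets. A difference of -1 or lower was present at 24 h in 43 members in mutant lungs and in 30 in wild type lungs, and at 48 h in 51 and 58 members. At least 50% of the 72 h difference was reached by 24 h in 73 members, first by 48 h in 16 and only by 72 h in 18 in mutant lungs, against 60, 32 and 15 in wild type lungs. In both genotypes this share was measured from wild type 0 h, here and for the roles below. Members already low at mutant 0 h can thus count as early in mutant lungs without a fall in oxygen. Among those that counted so were Acsm1, Nkain1, Fam172a and Ppp1r16b. Their mean intensities were 103, 113, 332 and 4374 at mutant 0 h and 145, 195, 387 and 4575 at 24 h. Hepacam counted as early with 458 and 421. At mutant 0 h, 6 members were already at -1 or lower.

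**Figure D1:**
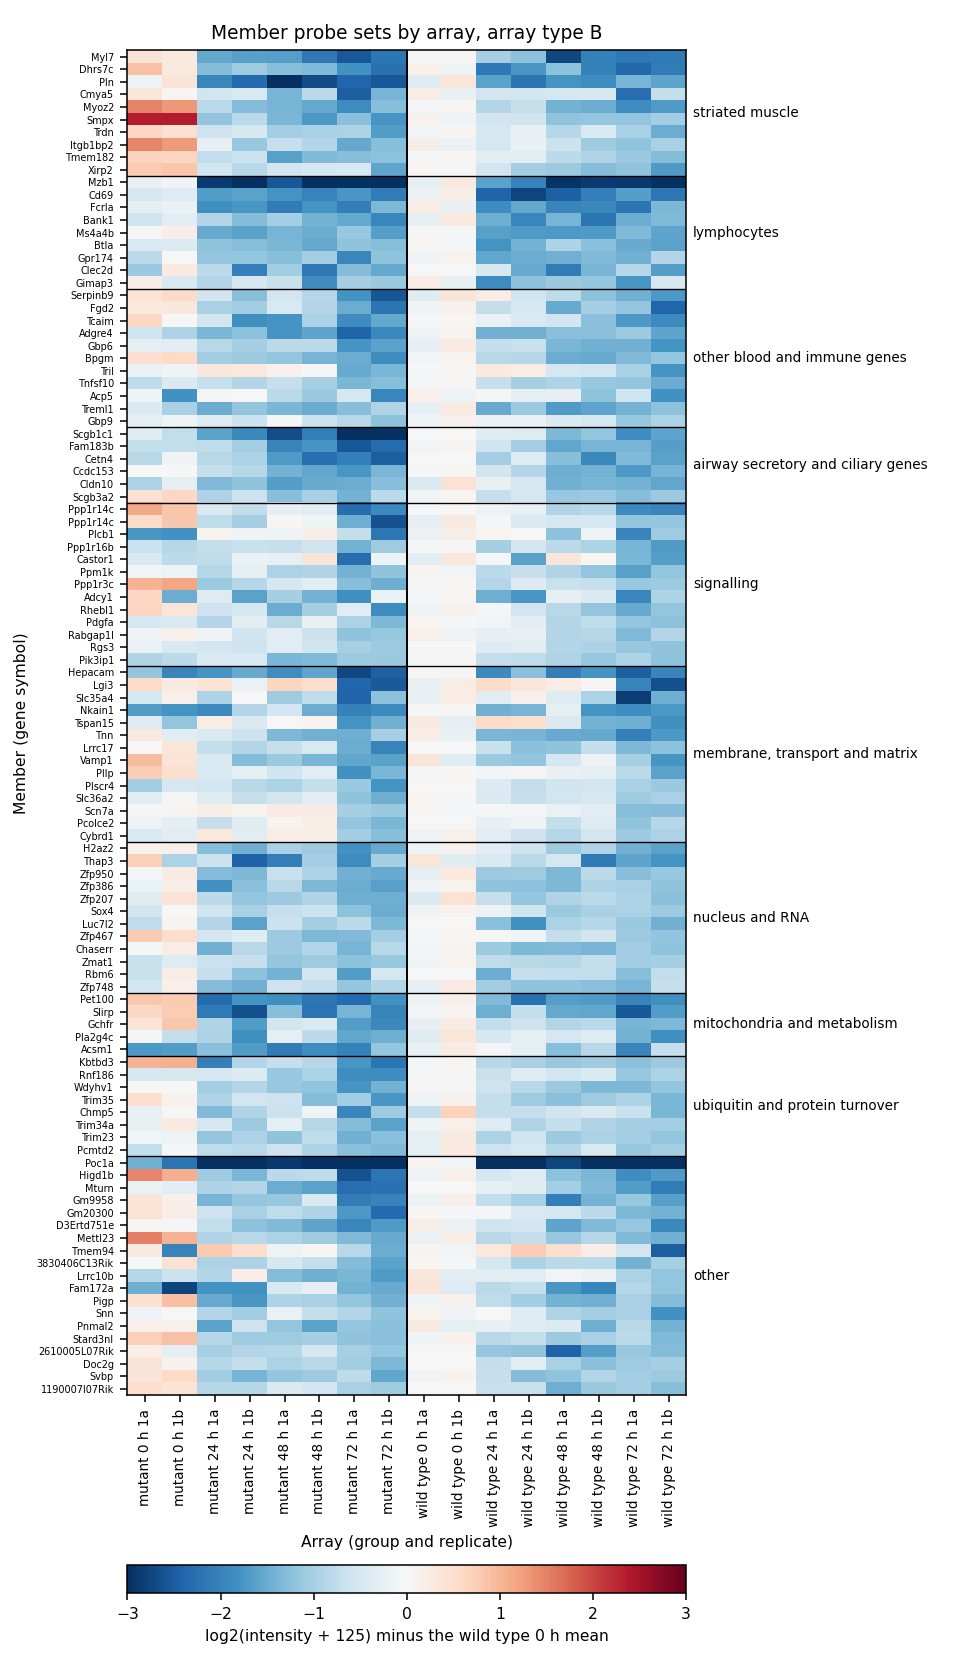
Log2 intensity, after adding the fixed constant, of each of the 107 member probe sets on the 16 arrays of type B, minus the mean of the 2 wild type 0 h arrays, with mutant arrays left of wild type arrays and rows grouped by role. Blue is lower and red higher than wild type 0 h, and the colour scale ends at -3 and 3. The lymphocyte rows are blue from 24 h in both genotypes, while Lgi3 and Scn7a are bluest at 72 h, and most striated muscle rows are red on the mutant 0 h arrays.

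The 12 members with the largest mean difference were Poc1a, Mzb1, Scgb1c1, Hepacam, Lgi3, Myl7, Dhrs7c, Higd1b, Mturn, Ppp1r14c, Slc35a4 and Fam183b. Poc1a, a protein of centrioles and basal bodies, had the largest differences from wild type 0 h, -4.43 in mutant and -3.51 in wild type lungs at 72 h. The intensity of Poc1a in mutant lungs was 1104 and 615.7 at 0 h, 281.3 and 235.4 at 24 h, 323.9 and 198 at 48 h, and 41.68 and 21.65 at 72 h. Wild type lungs gave intensities of 3412 and 3074 at 0 h, 215.1 and 272.6 at 24 h, 377 and 198.6 at 48 h, and 211.5 and 133.7 at 72 h. Both mutant 0 h arrays were already below both wild type 0 h arrays, and after 24 h the genotypes overlapped until 72 h, when both mutant arrays were below both wild type arrays. Against mutant 0 h, Poc1a fell by 1.32 ± 0.28 (SE) at 24 h (limma, adjusted p = 0.00466).

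Hepacam, an adhesion protein best known from glia, was also low in mutant lungs before oxygen. Its intensity in mutant lungs was 613.1 and 303.3 at 0 h and 127.8 and 184.1 at 72 h, against 1608 and 1523 at 0 h and 181.5 and 300.3 at 72 h in wild type lungs. Higd1b, a mitochondrial membrane protein expressed in pericytes, ran the other way at 0 h. Its intensity in mutant lungs was 7194 and 5486 at 0 h, 1140 and 890.1 at 24 h, 1391 and 1431 at 48 h, and 306.3 and 453.8 at 72 h. Intensities in wild type lungs were 2248 and 2819 at 0 h, 1713 and 1906 at 24 h, 1010 and 894 at 48 h, and 605.9 and 691.8 at 72 h. The mutant arrays of Higd1b were above the wild type arrays at 0 h and 48 h and below them at 24 h and 72 h. Of the 11 other measured markers of smooth muscle and pericytes, 0 were lower and 6 higher than wild type 0 h in mutant lungs at 72 h, and 2 were lower and 1 higher in wild type lungs, with medians of 0.7 and -0.07. Mturn, a regulator of neural and megakaryocyte differentiation, declined at each step in both genotypes, with differences from wild type 0 h of -0.9, -1.54 and -2.27 in mutant lungs and -0.33, -1.16 and -1.88 in wild type lungs at 24, 48 and 72 h.

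The members were sorted into 9 roles after they were known, with 19 left as other. Among these 19, 2610005L07Rik, 3830406C13Rik, 1190007I07Rik, D3Ertd751e, Gm9958 and Gm20300 carry only a systematic name. By chromosome, 12 of the 106 genes lay on chromosome 11 (11.3%, against 8.06% of the probe sets with 1 symbol) and 10 on chromosome 6 (9.43%, against 5%). Cd69 and Clec2d, related lectin-like receptors of lymphocytes, are neighbours on chromosome 6, and Gbp6 and Gbp9, interferon-induced guanylate-binding proteins, are neighbours on chromosome 5.

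**Figure D2:**
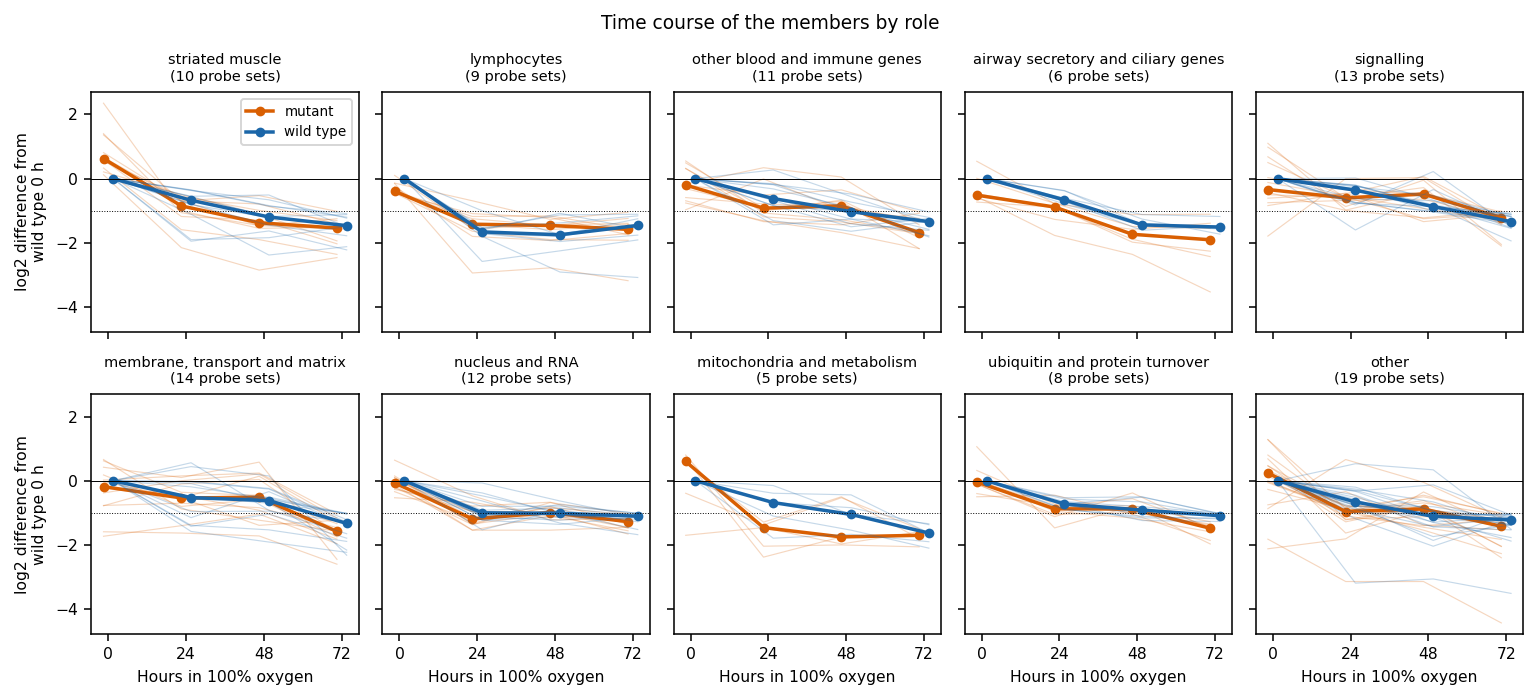
Log2 difference of each member from its wild type 0 h mean against hours in 100% oxygen, in 1 panel per role, with mutant in orange and wild type in blue. Thin lines are members, thick lines with points are the medians of the role, and the dotted line marks -1. The lymphocyte medians are below -1 at 24 h in both genotypes (-1.42 mutant, -1.66 wild type), while the signalling medians pass -1 only at 72 h (-1.22 mutant, -1.34 wild type). The medians of membrane, transport and matrix and of ubiquitin and protein turnover also pass -1 only at 72 h.

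The lymphocyte members were below wild type 0 h at 24, 48 and 72 h in the median of both genotypes. This group held 9 members: Mzb1, a chaperone of marginal zone B cells and plasma cells, Cd69, an early activation antigen, Fcrla, a B cell Fc receptor-like protein, Bank1, a B cell scaffold, Ms4a4b of T cells, Btla, an inhibitory receptor, the receptor Gpr174, Clec2d and Gimap3, a GTPase of T cell survival. All 9 had reached at least 50% of their 72 h difference by 24 h in both genotypes. The median difference in mutant lungs was -1.42, -1.46 and -1.58 at 24, 48 and 72 h, and in wild type lungs -1.66, -1.75 and -1.46.

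The intensity of Mzb1 in mutant lungs was 1742 and 1894 at 0 h, 169.7 and 143.5 at 24 h, 247.9 and 140.2 at 48 h, and 150.5 and 81.34 at 72 h. On wild type arrays the values were 1635 and 2520 at 0 h, 584.4 and 413.6 at 24 h, 153.8 and 171.1 at 48 h, and 164.1 and 100.2 at 72 h. At 24 h both mutant arrays of Mzb1 were below both wild type arrays, and from 48 h the genotypes overlapped. The genotype difference at 24 h did not pass the test. The intensity of Cd69 in mutant lungs was 739.2 and 824.5 at 0 h, 259.7 and 283.2 at 24 h, 232.1 and 183.5 at 48 h, and 245.2 and 163.3 at 72 h. The wild type intensities were 966.4 and 1273 at 0 h, 108.2 and 59.03 at 24 h, 101.7 and 173.3 at 48 h, and 267.2 and 149 at 72 h. Here the wild type arrays were below the mutant arrays at 24 h and 48 h, with no call in either comparison, and the genotypes overlapped at 72 h.

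Ms4a4b had intensities of 4874 and 5692 at 0 h, 1642 and 1537 at 24 h, 1794 and 1661 at 48 h, and 2182 and 1483 at 72 h in mutant lungs. Wild type lungs gave intensities of 5010 and 4834 at 0 h, 1506 and 1431 at 24 h, 1410 and 1432 at 48 h, and 1880 and 1556 at 72 h. All oxygen arrays of both genotypes were thus below all 0 h arrays. Its probe set has the suffix f, which marks probes shared within a gene family, so transcripts of related Ms4a genes may add to its signal.

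The fixed lists of lymphocyte markers held none of the 9 members and gave the wider context on all 3 array types. Of 10 measured B cell markers, 9 were lower and 0 higher at 72 h than at wild type 0 h in mutant lungs, and the same count held in wild type lungs. The list medians were -1.28 in mutant and -1.13 in wild type lungs. Over all 26821 probe sets tested, 6.68% were lower and 6.25% higher in mutant lungs, against 3.58% lower and 4.26% higher in wild type lungs. The B cell antigen Ms4a1 fell, with differences of -2.75 ± 0.24 in mutant lungs (limma, adjusted p = 7.73e-05) and -1.98 ± 0.24 in wild type lungs (adjusted p = 0.000952). Ebf1, a B cell transcription factor also expressed in other cells, was at 0.06 ± 0.61 in mutant and 1.07 ± 0.61 in wild type lungs and did not pass the test. Of 12 T and NK cell markers, 4 were lower and 0 higher in each genotype, namely Cd3e, Cd3g, Cd2 and Gzma. Against mutant 0 h these lists showed little of this at the earlier times. At 24 h, 3 B cell markers were lower and 2 higher, with a median of -0.12, and 1 T and NK cell marker was lower and 1 higher, with a median of -0.05. Over all tested probe sets 12.1% were lower and 12.3% higher in that comparison. At 48 h, 2 B cell markers were lower and 1 higher, with a median of -0.17, and 2 T and NK cell markers were lower and 0 higher, with a median of -0.2, against 8.28% lower and 9.62% higher of all tested. The summed intensity of 9 B cell markers on array type A was 11862 on the mutant 0 h array, against 19517 and 20186 on the wild type 0 h arrays. In wild type lungs that sum was 10267 on the single 24 h array, and 6791 and 7132 at 48 h. For 9 T and NK cell markers on array type A it was 4217 and 5478 at wild type 0 h, and 2056 at 24 h. On array type C, 2 further T and NK cell markers summed to 9313 and 12179 at wild type 0 h. At wild type 24 h they gave 7025 and 9869. These sums were not tested.

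Other blood and immune genes numbered 11. Of these, 7 reached at least 50% of the 72 h difference by 24 h in mutant lungs and 4 in wild type lungs. The group includes Bpgm, Serpinb9, an inhibitor of granzyme B, Fgd2, an exchange factor of antigen-presenting cells, Adgre4, an adhesion receptor of macrophages, Tcaim, a mitochondrial protein linked to T cell activation, and Gbp6. Bpgm had intensities of 11325 and 12224 at 0 h, 3814 and 3663 at 24 h, 3493 and 2962 at 48 h, and 2749 and 2100 at 72 h in mutant lungs. Intensities in wild type lungs were 7578 and 8427 at 0 h, 4468 and 4369 at 24 h, 2765 and 2706 at 48 h, and 3105 and 3510 at 72 h. The mutant arrays were the higher at 0 h and 48 h and the lower at 24 h and 72 h. Of 7 measured erythroid markers, 1 was lower and 1 higher at 72 h in mutant lungs, and 2 were lower and 0 higher in wild type lungs. The fixed list of 14 macrophage markers did not go with Adgre4, since at 72 h 0 were lower and 5 higher in mutant lungs, and 0 were lower and 3 higher in wild type lungs. Tril, an accessory protein of Toll-like receptor signalling, differed from wild type 0 h by 0.34, 0.05 and -1.44 at 24, 48 and 72 h in mutant lungs, and by 0.27, -0.56 and -1.36 in wild type lungs.

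**Figure D3:**
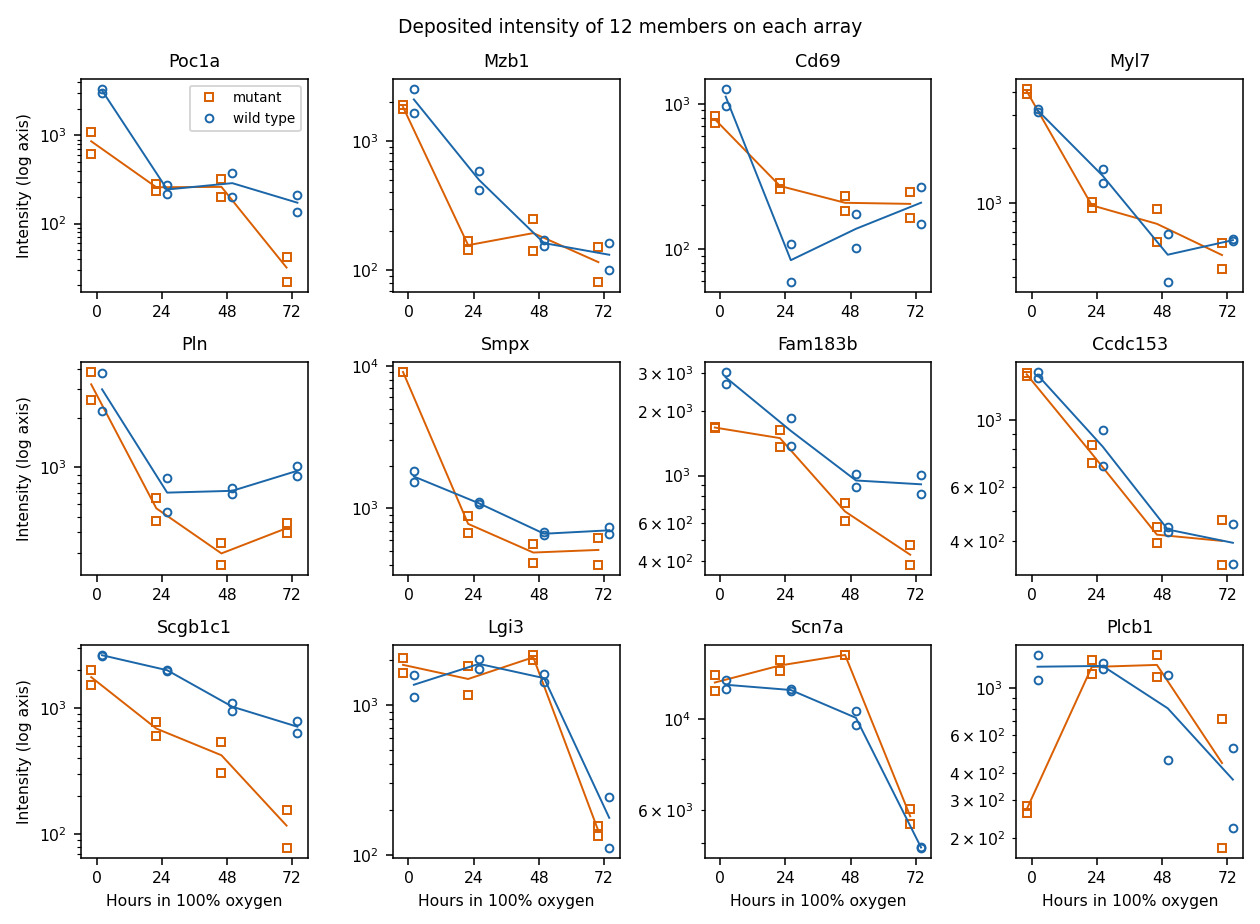
Deposited intensity, on a log axis, of 12 members against hours in 100% oxygen, with mutant as orange squares drawn left of wild type as blue circles. Each point is 1 array and the lines join the means of 2 arrays. Mzb1 and Cd69 are low from 24 h in both genotypes, Lgi3 is at 1132 or more until 48 h and at 241.8 or less at 72 h, and Smpx is at 9101 and 8981 on the mutant 0 h arrays.

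Striated muscle transcripts formed a second group of 10. It held Myl7, Pln, the phospholamban that restrains the sarcoplasmic calcium pump, Dhrs7c, a sarcoplasmic reticulum dehydrogenase, Cmya5, a protein of cardiac Z-discs, Myoz2, a calcineurin-binding Z-disc protein, Smpx, a small muscle protein, Trdn, triadin of the calcium release unit, Itgb1bp2, melusin, Tmem182 and Xirp2. In wild type lungs the group's median was -0.68, -1.19 and -1.47 at 24, 48 and 72 h. In mutant lungs it was 0.62 at 0 h, with all 10 members above wild type 0 h, and -0.85, -1.38 and -1.54 at 24, 48 and 72 h.

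Myl7 had intensities of 4162 and 3900 at 0 h, 1013 and 938.3 at 24 h, 928.4 and 621.3 at 48 h, and 440.1 and 611.2 at 72 h in mutant lungs. On wild type arrays the values were 3112 and 3246 at 0 h, 1528 and 1290 at 24 h, 375.6 and 680.3 at 48 h, and 627.4 and 638.3 at 72 h. Every oxygen array was below every 0 h array. Pln had intensities of 2583 and 3850 at 0 h, 651 and 471.3 at 24 h, 252.2 and 342.6 at 48 h, and 453.2 and 395.2 at 72 h in mutant lungs. The wild type intensities were 2223 and 3773 at 0 h, 863.4 and 536.5 at 24 h, 748.4 and 687.6 at 48 h, and 1017 and 887.1 at 72 h. At 48 h and 72 h both mutant arrays of Pln were below both wild type arrays, and the difference at 48 h did not pass the test.

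Smpx had intensities of 9101 and 8981 at 0 h, 669.8 and 891.1 at 24 h, 566.5 and 416.6 at 48 h, and 624 and 401.2 at 72 h in mutant lungs. Wild type lungs gave intensities of 1826 and 1524 at 0 h, 1106 and 1069 at 24 h, 649.3 and 681.8 at 48 h, and 659.7 and 747 at 72 h. The mutant 0 h arrays were far above all others. Smpx, Myoz2, Itgb1bp2 and Xirp2 were the 4 muscle members farthest above wild type 0 h in mutant lungs at 0 h, by 2.35, 1.4, 1.36 and 0.81.

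The fixed list of cardiac muscle markers, which shares Myl7 and Pln with the members, was low in both genotypes at 72 h. Leaving both members out, 5 of 7 measured markers were lower in mutant lungs and 6 of 7 in wild type lungs, and 0 were higher. Myl4, the atrial essential light chain, fell, with differences of -3.46 ± 0.19 in mutant lungs (limma, adjusted p = 9.04e-06) and -2.49 ± 0.19 in wild type lungs (adjusted p = 7.38e-05). The summed intensity of 8 cardiac markers on array type A was 44547 on the mutant 0 h array and 10299 and 10691 on the mutant 72 h arrays, against 35799 and 37605 on the wild type 0 h arrays and 9463 and 9661 on the wild type 72 h arrays. Of 8 measured skeletal muscle markers, 3 were lower and 0 higher in each genotype at 72 h against wild type 0 h.

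Airway secretory and ciliary genes made up 6 members, and most of their difference was present by 48 h. The secretory members were Scgb1c1 and Scgb3a2, secretoglobins of the airway epithelium, and Cldn10, a tight junction protein of club cells. The ciliary members were Fam183b, Ccdc153 and Cetn4, whose promoters are printed above. The group's median was -0.88, -1.74 and -1.91 at 24, 48 and 72 h in mutant lungs and -0.66, -1.44 and -1.51 in wild type lungs.

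Scgb1c1 had intensities of 2013 and 1526 at 0 h, 780.3 and 601.9 at 24 h, 309.3 and 539.2 at 48 h, and 156.8 and 77.67 at 72 h in mutant lungs. Intensities in wild type lungs were 2673 and 2608 at 0 h, 2029 and 1986 at 24 h, 960.6 and 1101 at 48 h, and 632.7 and 797.3 at 72 h. Both mutant arrays were below both wild type arrays at each of the 4 times. Fam183b had intensities of 1687 and 1657 at 0 h, 1630 and 1356 at 24 h, 615.5 and 746.2 at 48 h, and 383.6 and 474 at 72 h in mutant lungs. On wild type arrays the values were 2677 and 3044 at 0 h, 1853 and 1375 at 24 h, 882 and 1016 at 48 h, and 1002 and 819.8 at 72 h. The main step of Fam183b in mutant lungs lay between 24 h and 48 h.

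Ccdc153 had intensities of 1395 and 1427 at 0 h, 827.5 and 720.4 at 24 h, 444.8 and 393.2 at 48 h, and 332.7 and 466.7 at 72 h in mutant lungs. The wild type intensities were 1368 and 1441 at 0 h, 927.3 and 706 at 24 h, 427.8 and 443.6 at 48 h, and 334.8 and 453.2 at 72 h. The genotypes overlapped at all 4 times. In the fixed lists, 4 of 9 club cell markers other than Scgb3a2 were lower at 72 h in mutant lungs and 1 of 9 in wild type lungs, and 0 were higher. Scgb1a1, the main club cell secretoglobin, was at 0.84 ± 0.26 in mutant and 0.47 ± 0.26 in wild type lungs and did not pass the test. Of 10 ciliated cell markers, 1 was lower in mutant lungs and 0 in wild type lungs, so the ciliary members were not matched by most of that list.

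The membrane, transport and matrix group held 14 members. Of the members that reached at least 50% of their 72 h difference only by 72 h, this group held 8 of 18 in mutant lungs and 4 of 15 in wild type lungs, and the others lay in other roles. Lgi3, a secreted leucine-rich repeat protein, had intensities of 2059 and 1635 at 0 h, 1817 and 1156 at 24 h, 2163 and 1985 at 48 h, and 155.1 and 132.9 at 72 h in mutant lungs. Wild type lungs gave intensities of 1132 and 1589 at 0 h, 2015 and 1735 at 24 h, 1599 and 1412 at 48 h, and 241.8 and 110.6 at 72 h. Every array up to 48 h was at 1132 or more and every 72 h array at 241.8 or less. The 2 other probe sets of Lgi3 on array type B were lower at 72 h by less, with differences of -1.7 and -1.18 in mutant lungs and -0.91 and -0.64 in wild type lungs.

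Scn7a had intensities of 11695 and 12788 at 0 h, 13843 and 13083 at 24 h, 14310 and 14246 at 48 h, and 6042 and 5557 at 72 h in mutant lungs. Intensities in wild type lungs were 12392 and 11787 at 0 h, 11793 and 11685 at 24 h, 10426 and 9673 at 48 h, and 4888 and 4853 at 72 h. The mutant arrays were above the wild type arrays at 24, 48 and 72 h, and no genotype call was made. Pcolce2 differed from wild type 0 h by -0.54, 0.14 and -1.28 in mutant lungs and by -0.19, -0.55 and -1.04 in wild type lungs at 24, 48 and 72 h. Tspan15, a tetraspanin that directs the protease ADAM10, was at -0.1, 0.04 and -1.62 in mutant lungs and 0.56, -0.92 and -1.65 in wild type lungs. Tnn, tenascin-W of the matrix, was early by contrast, at -0.54, -1.39 and -1.23 in mutant lungs and -1.39, -1.53 and -1.89 in wild type lungs. Slc35a4, a nucleotide sugar transporter relative, was at -0.46, -0.92 and -1.82 in mutant lungs and -0.09, -0.66 and -2.16 in wild type lungs, but its 72 h replicates lay far apart, at 705 and 1744 in mutant and 481 and 1464 in wild type lungs.

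Signalling genes gave 13 probe sets of 12 genes and, in the median, the smallest share of the 72 h difference at 24 h in wild type lungs, 30.6%. In mutant lungs that share was 42.7%. The 2 probe sets of Ppp1r14c both belonged to the members, with differences at 72 h of -2.1 and -2.05 in mutant lungs and -1.94 and -1.18 in wild type lungs. The probe set with the larger of these differences had intensities of 12808 and 10360 at 0 h, 4137 and 3399 at 24 h, 4810 and 4633 at 48 h, and 1078 and 1436 at 72 h in mutant lungs. On wild type arrays the values were 5623 and 5916 at 0 h, 5141 and 4885 at 24 h, 3042 and 3173 at 48 h, and 1449 and 1379 at 72 h. Other members were Plcb1, a phospholipase C, Ppp1r16b, Castor1, an arginine sensor of the mTORC1 pathway, Ppm1k, the phosphatase that activates branched-chain amino acid breakdown, Ppp1r3c, a glycogen-targeting subunit, and Adcy1, an adenylate cyclase. The fixed list of 25 measured endothelial markers did not go with Ppp1r16b. At 72 h 2 of them were lower and 9 higher in mutant lungs, and 1 was lower and 4 higher in wild type lungs. The replicates of Castor1 at mutant 72 h were 113.7 and 932.9, and those of Adcy1 were 108.2 and 601.4, so these members rest on arrays that did not agree. In 15 members the replicates differed by more than 1 on the log2 scale in at least 1 of the 3 groups that chose them.

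Genes of the nucleus and RNA numbered 12 and reached a median of 88.8% of the 72 h difference by 24 h in mutant lungs and 86.8% in wild type lungs. They included H2az2, a histone variant, Thap3, a zinc finger protein, Zfp950, Zfp386 and Zfp207 of the zinc finger family, and Sox4. H2az2 had intensities of 660 and 678.1 at 0 h, 173.2 and 140.3 at 24 h, 239.4 and 217.1 at 48 h, and 80.17 and 124.8 at 72 h in mutant lungs. The wild type intensities were 526.7 and 664.6 at 0 h, 445.6 and 342.6 at 24 h, 215.2 and 260.2 at 48 h, and 138.1 and 111.6 at 72 h. At 24 h both mutant arrays were below both wild type arrays, without a call. Sox4 was at -0.79, -0.67 and -1.36 in mutant lungs and -0.38, -1.04 and -1.02 in wild type lungs at 24, 48 and 72 h.

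Mitochondrial and metabolic genes were 5 members. Pet100, an assembly factor of cytochrome c oxidase, had intensities of 10216 and 10007 at 0 h, 1064 and 1572 at 24 h, 1520 and 1184 at 48 h, and 1063 and 1543 at 72 h in mutant lungs. Wild type lungs gave intensities of 5152 and 6385 at 0 h, 2213 and 1112 at 24 h, 1740 and 1691 at 48 h, and 1372 and 1512 at 72 h. All oxygen arrays of Pet100 were below all 0 h arrays. Slirp, a stabiliser of mitochondrial messenger RNA, was at -2.38, -1.75 and -1.7 in mutant lungs and -1.1, -1.54 and -2.1 in wild type lungs. Gchfr, the feedback regulator of GTP cyclohydrolase, Pla2g4c, a phospholipase A2, and Acsm1, a medium-chain acyl-CoA synthetase, completed the group. Acsm1 was already low in mutant lungs at 0 h, with 98.86 and 106.8, against 509.9 and 733 in wild type lungs.

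The 8 genes of ubiquitin and protein turnover all lay below wild type 0 h at 24 h in both genotypes, with medians of -0.88 in mutant and -0.73 in wild type lungs. They were Kbtbd3, Rnf186, Wdyhv1, an N-terminal glutamine amidase, Trim35, Chmp5 of the ESCRT machinery, Trim34a, Trim23 and Pcmtd2. Rnf186 had intensities of 4912 and 5047 at 0 h, 5004 and 5355 at 24 h, 3162 and 3636 at 48 h, and 1857 and 1869 at 72 h in mutant lungs. Intensities in wild type lungs were 6987 and 7247 at 0 h, 4447 and 5396 at 24 h, 4739 and 5263 at 48 h, and 3180 and 3609 at 72 h. Mutant arrays were below wild type arrays at 0, 48 and 72 h.

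The earliest and the latest time courses in wild type lungs came from different roles. By the ratio of the 24 h to the 72 h difference, the 4 earliest were the lymphocyte members Gimap3, Cd69 and Gpr174, with Pln. Gimap3 was at -1.56 at 24 h and -1.11 at 72 h in wild type lungs, and Cd69 at -2.58 and -1.91. Lgi3, Tspan15, Tmem94, a magnesium transporter of the endoplasmic reticulum, and Tril were above wild type 0 h at 24 h in wild type lungs, by 0.44, 0.56, 0.53 and 0.27, and below it at 72 h.

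The arrays that chose the members cannot also test them, so tests were made on the 24 h, 48 h and mutant 0 h arrays, which the choice did not use. Differences are given as limma log2 differences ± SE, with p-values adjusted over all 26821 probe sets tested on the 3 array types, and all 107 members were tested. Of these comparisons, 4 used oxygen groups only. Between 48 h and 24 h in wild type lungs, 0 members passed in either direction, against 0.0224% of all 8948 tested probe sets of array type B that were lower and 0.0559% that were higher. At an unadjusted p under 0.05, 35 members were lower and 2 higher, and 374 and 335 of all tested probe sets. The members' median difference was -0.29, against 0.02 over all tested.

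Between 48 h and 24 h in mutant lungs, 3 members fell and 0 rose, against 0.268% and 0.179% of all tested. The differences were -1.01 ± 0.19 for Fam183b (limma, adjusted p = 0.0365), -0.89 ± 0.16 for Pik3ip1, an inhibitor of phosphatidylinositol 3-kinase (adjusted p = 0.028), and -0.78 ± 0.16 for Tmem182 (adjusted p = 0.0475). None of the 3 was called in a fit with only the arrays compared, or without any 1 of the 4 mutant 24 h and 48 h arrays. Pik3ip1 had 1282 and 1320 at 48 h, against 2518 and 2528 at 24 h. The members' median was -0.04, against 0.03 over all tested. For the difference between the genotypes in this step, 0 members passed with limma, and at an unadjusted p under 0.05 there were 5 with a lower and 19 with a higher difference in mutant lungs. Of all tested probe sets of array type B, 0.201% were called lower and 0.0335% higher, and 362 and 440 of 8948 had such an unadjusted p.

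At 24 h, 1 member was lower and 0 were higher in mutant than in wild type lungs, against 0.112% of all tested in each direction. This was Scgb1c1, with a difference of -1.39 ± 0.24 (limma, adjusted p = 0.0425) and 780.3 and 601.9 in mutant lungs, against 2029 and 1986 in wild type lungs. At 48 h, 1 member was higher and 0 were lower in mutant lungs, against 0.101% and 0.19% of all tested. This was 2610005L07Rik, with a difference of 1.34 ± 0.24 (adjusted p = 0.0366) and 398.3 and 524.8 in mutant lungs, against 49.94 and 177.2 in wild type lungs. The medians of the genotype difference over the members were -0.22 at 24 h and 0.08 at 48 h, against -0.02 and 0 over all tested. With the replicate number as a block the call at 24 h was lost. Both calls were lost under other settings, among them 32 added before the logarithm and a fit with only the arrays compared, where 0 members were called at 24 h and at 48 h. These comparisons share arrays with each other.

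**Figure D4:**
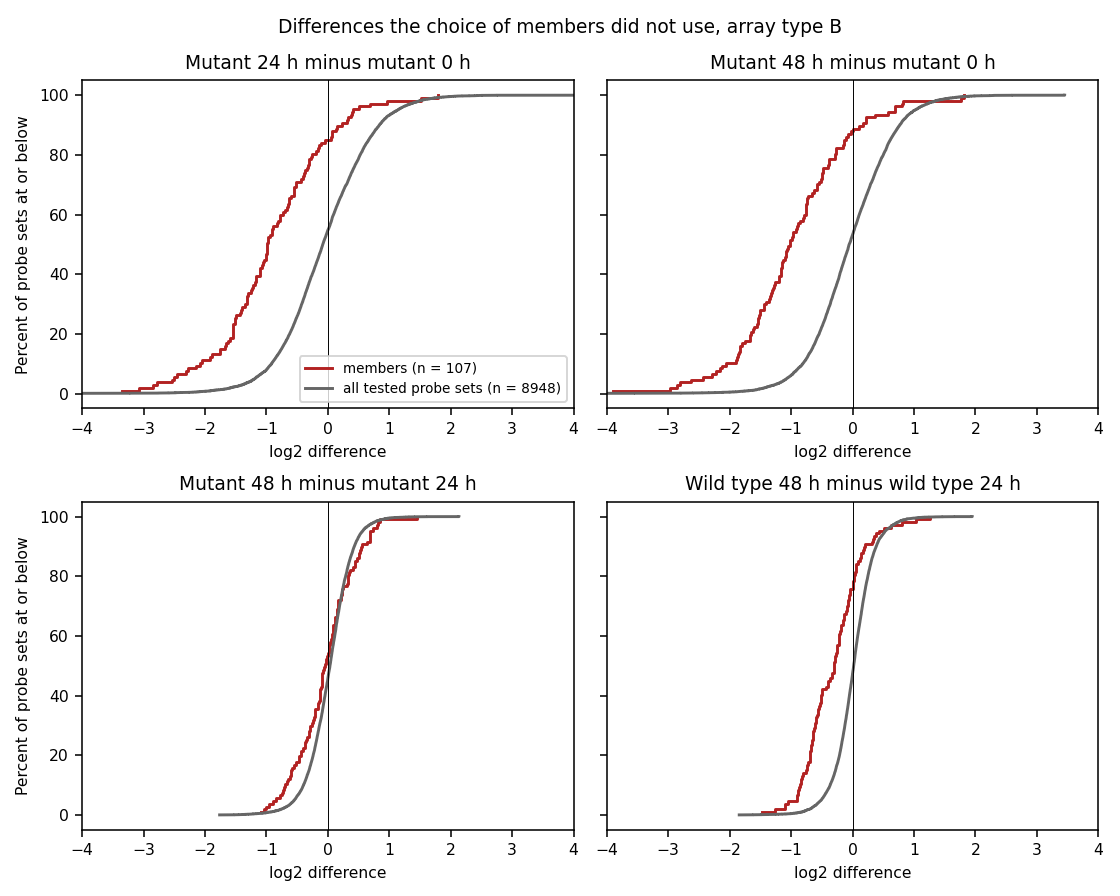
Cumulative percent of probe sets at or below each log2 difference for the members (red, n = 107) and all tested probe sets of array type B (grey, n = 8948), in 4 comparisons that did not choose the members. Against mutant 0 h the members' curves lie left of those of all tested probe sets, with medians of -0.99 at 24 h and -1.02 at 48 h, while the curves between 48 h and 24 h lie closer together.

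The 2 comparisons with mutant 0 h rest on the arrays that stood apart. Of the 107 members, 60 were lower and 1 higher at 24 h than at 0 h in mutant lungs, against 15.6% lower and 14.4% higher among all tested probe sets of array type B. At 48 h 61 were lower and 2 higher, against 10.9% and 11.7%. The members' median differences were -0.99 and -1.02, against -0.08 and -0.05 over all tested. The 2 comparisons share the mutant 0 h arrays. A call of lower was made at both times for 51 members, at either for 70, and 35 members were called at neither time.

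The largest falls at 24 h were those of Smpx, with -3.35 ± 0.21 (limma, adjusted p = 2.87e-06), Slirp, with -3.07 ± 0.37 (adjusted p = 0.000182) and Pet100, with -2.85 ± 0.28 (adjusted p = 6.97e-05). At 48 h they were those of Smpx, with -3.9 ± 0.21 (adjusted p = 5.19e-07), Pln, with -2.97 ± 0.28 (adjusted p = 5.91e-05) and Myoz2, with -2.86 ± 0.22 (adjusted p = 1.31e-05). Other probe sets of these genes fell by less. At 24 h that of Slirp was at -2.47 and that of Pet100 at -0.7 against mutant 0 h. At 48 h that of Pln was at -2.18 and that of Myoz2 at -0.32. Striated muscle members fell in 9 of 10 cases at each time. At mutant 0 h they were above wild type 0 h by between 0.12 (Pln) and 2.35 (Smpx). The skeletal muscle markers given above were also higher on the mutant 0 h array of type A. On array type C the sum over 3 skeletal muscle markers was 19770 and 25572 at mutant 0 h, against 12879 and 17025 at wild type 0 h. The part of skeletal muscle in the falls of the striated muscle members was not tested. Of 8 skeletal muscle markers, 5 were lower and 0 higher at 24 h than at mutant 0 h, with a list median of -2.38. Of the lymphocyte members, 5 of 9 fell at 24 h and 5 of 9 at 48 h, with medians of -1.01 and -1.17, and the group's median at mutant 0 h was -0.39 against wild type 0 h.

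Airway members fell in 3 of 6 cases at 24 h and in 6 of 6 at 48 h, where Ccdc153 fell by 1.5 ± 0.19 (limma, adjusted p = 0.00035) and Cetn4 fell by 1.5 ± 0.31 (adjusted p = 0.00646). The membrane, transport and matrix members fell in 3 of 14 cases at each time, and the signalling members in 3 of 13 and 5 of 13. Of the nucleus and RNA members, 7 of 12 fell at each time. The member probe set of Plcb1 rose at both times, by 1.79 ± 0.45 (adjusted p = 0.012) and 1.81 ± 0.45 (adjusted p = 0.0148). That of Fam172a rose at 48 h by 1.77 ± 0.35 (adjusted p = 0.0047). Plcb1 had intensities of 281.7 and 261.6 at 0 h, 1346 and 1154 at 24 h, 1128 and 1428 at 48 h, and 713.7 and 179.2 at 72 h in mutant lungs. On wild type arrays the values were 1090 and 1417 at 0 h, 1300 and 1228 at 24 h, 458.7 and 1146 at 48 h, and 221.3 and 526.1 at 72 h. Its mutant 0 h arrays were below all wild type 0 h and 24 h arrays. Plcb1 was not called at either time without mutant 0 h replicate 1b, at 24 h without mutant 24 h replicate 1a, or at 48 h without either mutant 48 h replicate. Other tested probe sets of Plcb1 and Fam172a differed less from mutant 0 h. Those of Plcb1 were at 0.12 and 0.05 at 24 h and at -0.07 and 0.88 at 48 h. Those of Fam172a were at 0.21, 0.03 and 0.39 at 48 h.

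At mutant 0 h, 61 of the 107 members were within 0.5 of wild type 0 h on the log2 scale, 24 were above it by more and 22 below it by more. Measured from mutant 0 h instead of wild type 0 h, the 72 h difference was -1 or lower in 79 members, with a median of -1.47. The highest such value was 0.66, that of Fam172a, whose arrays were 529 and 134.7 at mutant 0 h and 547.6 and 507.3 at mutant 72 h. Both 72 h groups chose the members, which had to be low in both, so the choice favours likeness of the genotypes at 72 h. The counts that follow are a description only. At 72 h the difference between mutant and wild type lungs was under 0.5 in size in 93 members, with a median of -0.15. It was -0.5 or lower in 13 members and 0.5 or higher in 1, Tnn with 0.66. The lowest was that of Scgb1c1, -1.81.

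Other probe sets for the same genes were measured on the 3 array types. The choice used no values of array types A and C, although the tissue groups are the same. Those on array type B are the probe sets that did not meet the rule, so low values are rare there by construction. Whether any of them shares probes with its member was not examined. There were 114 such probe sets, of which 90 were tested, for 55 of the genes, and 51 genes had none. A difference of -1 or lower at 72 h in both genotypes was found in 4 of 22 on array type A, 1 of 40 on B and 4 of 28 on C, against 2.14%, 1.71% and 1.68% of all tested probe sets of these types. The median over the 90 was -0.48 in mutant and -0.35 in wild type lungs, and 64 of the 90 were below 0 in both genotypes, against 40 to 46.7% of all tested probe sets by array type. The 9 probe sets belong to Myl7, H2az2, Bpgm and Fcrla on A, Ms4a4b on B, and Tnfsf10, Scn7a, Trdn and Ppp1r14c on C.

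Myl7 had 2 other probe sets. That on array type A was at -3.38 in mutant and -3.1 in wild type lungs at 72 h, and that on C at -0.75 and -0.2. The other probe set of Trdn was at -2.24 in mutant and -1.34 in wild type lungs, and that of H2az2 at -1.79 and -1.53. Tnfsf10, a death ligand of the TNF family, was at -1.84 and -1.45 on array type C but at -0.89 and -0.76 on A, and Scn7a at -1.3 and -1.34 on C but at -0.12 and -0.64 on A. Several members were not matched. The other probe set of Mzb1 was at -0.41 in mutant and -0.64 in wild type lungs, against -3.18 and -3.08 for the member. A probe set of Fgd2 brighter than the member was at -0.27 in mutant and -0.42 in wild type lungs. The other tested probe set of Serpinb9 was at -0.64 and -0.15, and that of Slc35a4 at -0.22 and -0.1. Those of Sox4 ran from -1.08 to 0.4 in mutant lungs and from -0.83 to 0.3 in wild type lungs. All 7 other probe sets of Luc7l2 were above -1 in both genotypes, and a second probe set of Chaserr, a long noncoding RNA, was at 1.14 in mutant and 1.1 in wild type lungs. Probe sets of a gene can read different transcripts, and which of them reads the gene's main transcript was not tested.

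**Figure D5:**
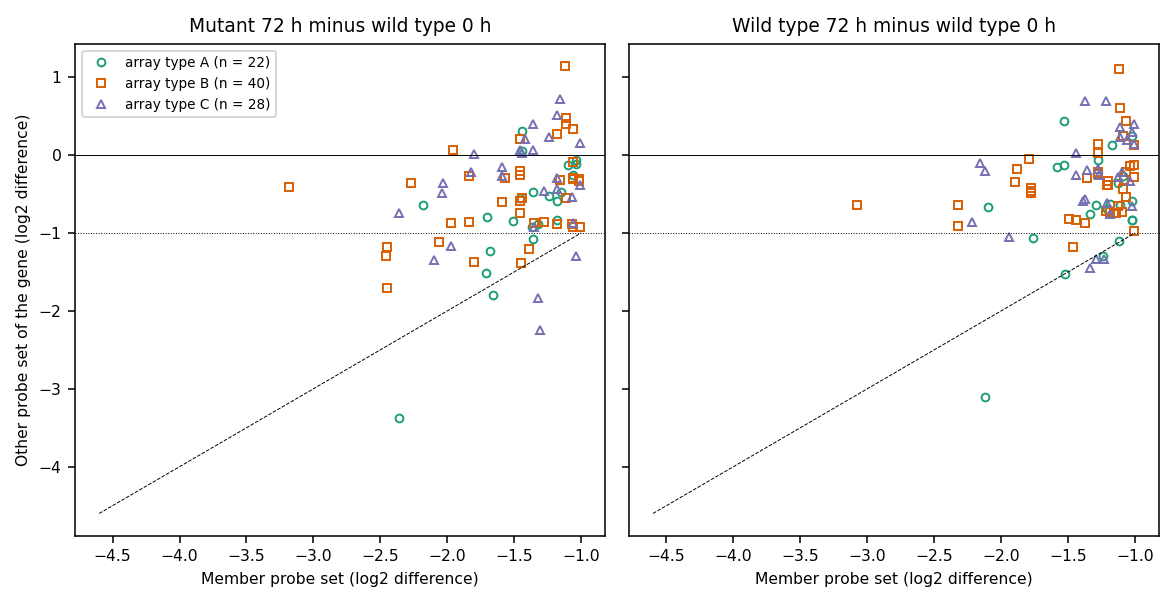
Log2 difference at 72 h against wild type 0 h of each other tested probe set (vertical axis) against that of the member probe set of the same gene (horizontal axis), for mutant lungs on the left and wild type lungs on the right. Colours give array types A, B and C (22, 40 and 28 probe sets), the dotted line marks -1 and the dashed line equal differences. Most points lie above the dashed line, so the other probe sets differed by less than the members, with medians of -0.48 in mutant and -0.35 in wild type lungs. The members were chosen for differences of -1 or lower, which favours such points.

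Just inside the wild type limit were Cybrd1, Trim34a and Zmat1, with differences of -1.01, -1.01 and -1.01, and just outside were Gbp8, Mmd and Rnf144a, with -0.999, -0.996 and -0.995. For the mutant limit, Adcy1, 1190007I07Rik and Zfp748 lay inside at -1.01, -1.01 and -1.02, and Ncald, Pon3 and Limk2 outside at -0.998, -0.991 and -0.991. For the intensity limit, Zfp748, Rbm6 and Xirp2 lay inside at 505.2, 515.4 and 537.3, and Cep68, Arsk and Pxylp1 outside at 494.2, 484 and 478.6. A further 22 probe sets met all 3 numerical conditions but carried no single gene symbol.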

How the data were processed

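Lung RNA was hybridised to 3 types of oligonucleotide array. The values are linear intensity values deposited by the authors, 1 per probe set and array. Their software and genome build: not given in the sources used here. On each array of type B the 2%-trimmed mean was 800.2, and this scaling was kept. The 66 control probe sets of type B were left out. Gene symbols came from the platform's annotation table.

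Log2 was taken after adding a fixed constant on type B, below which 24.9% of its values lay, and 78.5 and 106 on types A and C. The filter kept probe sets whose value passed the 40th percentile of its type on 2 or more arrays. Each type was fitted once with limma (version 3.58.1, R 4.3.3) and 8 group means. The two-sided p-values were adjusted by Benjamini-Hochberg over all types, and a call needed an adjusted p under 0.05. The mutant 0 h and wild type 24 h groups each had a single type A array, which is assumed to vary like the others. The code was tested on simulated data. The number of arrays limits the precision.

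The members, gene lists, roles and comparisons were chosen with earlier results of these data known. Members named are the 12 with the largest mean difference, the 6 brightest, those in the lists, the largest called changes, those nearest each limit, up to 6 of each role, and the earliest and latest time courses. Others were named after their values were seen. Alternatives were another added constant or a floor, quantile normalization, other filters, fits of only the arrays compared, the replicate number as a block, trend and robust eBayes, adjustment within type B, leaving out each array and, added after the data were seen, leaving out mutant 0 h.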

Additional observations from a re-analysis of the deposited data

How the results depend on the processing

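The number of members was 188 with a floor in place of the added constant, 158 with 32 added and 111 with quantile normalization, and 100 to 159 when 1 array was left out, against 107; 50 of the 107 stayed in all 6 sets that leave out 1 array. Members lower at 24 h and at 48 h than at mutant 0 h numbered 47 to 62 and 45 to 65 under every setting run, leave-one-out included. The counts that use oxygen groups only are small and changed. Members called between genotypes at 24 h numbered 0 with 32 added, with quantile normalization, with no filter, with only the groups compared and with the replicate block, 2 with the filter at the 60th percentile, and 0 to 1 when 1 array was left out, against 1. At 48 h they numbered 0 with 32 added, with no filter, with only the groups compared and with adjustment over array type B alone, 2 with trend and robust eBayes, 3 with the filter at the 60th percentile, 2 without the mutant 0 h arrays and 0 to 2 when 1 array was left out, against 1. Members lower between 48 h and 24 h in mutant lungs numbered 0 with only the groups compared, and 0 to 2 when 1 array was left out, against 3. They numbered 2 with no filter, 2 with adjustment over B alone and 2 without the mutant 0 h arrays. In wild type lungs 1 was lower with trend and robust eBayes, and 0 to 0 when 1 array was left out, against 0. With the replicate block, 62 and 64 members were lower than at mutant 0 h, against 60 and 61, and no call other than that at 24 h between genotypes was changed in number by over 1.5 times. Whether the numbers 1a and 1b pair the samples is not settled by the labels. The correlation of same-numbered deviations lay between -0.1 and 0.24 over 28 pairs of groups and was over 0.1 in 18 of them, not in all, so the block was kept as an alternative only. Of 355 values of 14 single-gene results under the alternatives, 281 kept their call and direction and 74 kept their direction without a call. Low signal limits the members that were below the filter value at 72 h. Against mutant 0 h, the falls of Smpx, Slirp and Pet100 at 24 h and of Smpx, Pln and Myoz2 at 48 h kept their call under all alternatives run for them.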

Other observations

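The 22 probe sets of array type B that met the 3 numerical conditions without a single symbol differed from wild type 0 h in the same way by construction. The lowest of them was at -2.45 in mutant and -2.77 in wild type lungs at 72 h and a mean intensity of 868.7 at wild type 0 h. Members with a probe set suffix that marks shared or mixed probes numbered 20 of 107, of which 9 had the suffix f, 4 the suffix i, 4 the suffix r, 2 the suffix s and 1 the suffix g. Members far below wild type 0 h at mutant 0 h were Fam172a (-2.12), Poc1a (-1.82), Plcb1 (-1.79), Nkain1 (-1.73), Acsm1 (-1.7) and Hepacam (-1.59).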
